A study of Mus musculus with 22 samples.

Results

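miR-135a-5p (mmu-miR-135a-5p in the tables) is 1 of the 172 microRNAs (miRNAs) listed for both hypothalamic nuclei. It was chosen by its level, its share of reads and its rank, as an abundant brain miRNA with a known link to stress and mood, so these are given as a description with no test. miRNAs are short RNAs that bind target mRNAs, mainly through bases 2 to 8 (the seed), and lower their translation or stability. In mouse serotonergic neurons, miR-135a is known to target the serotonin transporter and the serotonin receptor Htr1a. The arcuate nucleus (ARC) holds neurons that sense circulating hormones and nutrients, and the paraventricular nucleus (PVH) receives their input and drives the pituitary stress axis.

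Small RNA was sequenced from laser-captured ARC and PVH tissue of wild type C57BL/6J males at 8 weeks of age, all fed chow after weaning. Off-C mice were born to dams on control chow, and Off-Ob mice to dams made obese on a high-fat diet with sweetened condensed milk. Each nucleus had 6 Off-C and 5 Off-Ob libraries. These came from 12 mice, of which 6 Off-C and 4 Off-Ob had values for both nuclei. Values were available for the ARC alone of F6A and for the PVH alone of F14A. In this design 1 male was taken per litter, so a mouse stands for a dam.

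The seed and the near identity to its paralogue are shown here because both bear on how the reads can be counted. The mature sequence of miR-135a-5p is the same from both of its genes, with the seed in capitals. The 3p arms of the hairpins, whose seeds are also in capitals, were not among the listed miRNAs. In the stretch of the Mir135b hairpin closest to miR-135a-5p, the capital marks the base that differs.
miR-135a-5p: uAUGGCUUuuuauuccuauguga
miR-135a-1-3p: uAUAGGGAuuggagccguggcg
miR-135a-2-3p: uGUAGGGAuggaagccaugaa
Mir135b hairpin stretch: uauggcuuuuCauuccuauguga

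Sequences are from RefSeq on GRCm38.p6, in which 148 of the 172 listed miRNAs (86.0%) had a mature entry, and among these miR-135a-5p alone had the seed AUGGCUU. Counted from 1 at the 5′ end of miR-135a-5p, the Mir135b stretch differs by U11C and matches at 22 bases, the seed included. The GC content of miR-135a-5p was 30.4%, against a median of 47.8% over the listed miRNAs with a sequence. On GRCm38, miR-135a-5p is read from chr9:106154140-106154162 on the plus strand (Mir135a-1) and from chr10:92072141-92072163 on the minus strand (Mir135a-2). In GENCODE vM21 the Mir135a-1 hairpin lies within an intron of the antisense gene D030055H07Rik, and on the opposite strand to an exon of Glyctk. The Mir135a-2 hairpin lies on the same strand as the lincRNA Rmst, within an intron. The Mir135b hairpin lies on chromosome 1 within an intron of Lemd1. Because the mature sequence is shared, its reads cannot be divided between the Mir135a genes.

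The ARC libraries held 22680 to 91790 reads over the listed miRNAs and the PVH libraries 22495 to 61476. Among the Off-Ob ARC libraries, F42A and F6A stood apart. Reads of the 10 listed let-7 miRNAs made up 79.1% of F42A and 64.2% of F6A, while Off-C ARC libraries ranged from 33.8 to 46.8%. In F42A 20 miRNAs were at 0 reads, while no other library had more than 2 miRNAs at 0 reads. The differences, places and lists that rest on these libraries are therefore also given without them. Of the neuron-enriched markers, 11 of 13 were listed, and they summed to 17.5 to 24.8% of the reads in Off-C ARC and 14.7 to 19.2% in Off-C PVH. With miR-7a-5p, the most abundant miRNA in both nuclei, set aside, the sums were 1.88 to 2.88% in Off-C ARC and 2.87 to 4.68% in Off-C PVH, so that the order of the nuclei turned. In bulk tissue, fewer cells that carry miR-135a-5p and less of it per cell cannot be told apart.

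miR-135a-5p was read in every library, from 13 reads in the ARC of F42A to 1095 in the PVH of RC5A. In Off-C ARC it took 0.662% of the reads in the lowest library (95% Wilson interval 0.588 to 0.747%), 0.794% at the median and 1.00% in the highest (0.906 to 1.11%). Its mean share there was 0.821% ± 0.139 (SD, n = 6). In Off-Ob ARC the shares were 0.0573% in F42A (0.0335 to 0.0981%), 0.163% in F6A (0.131 to 0.204%), 0.733% in F12A, 0.803% in F13A and 1.08% in F41A (1.01 to 1.15%). Their mean was 0.567% ± 0.438 (SD, n = 5), and 0.871% ± 0.181 (n = 3) without F42A and F6A. Thus F42A and F6A lay below every Off-C library, F41A lay above every one of them, and F12A and F13A lay among them.

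In Off-C PVH the share was 1.18% in the lowest library (95% Wilson interval 1.07 to 1.30%), 1.30% at the median and 1.95% in the highest (1.84 to 2.06%). The mean was 1.48% ± 0.355 (SD, n = 6). In Off-Ob PVH it was 1.03% in F13A (0.921 to 1.16%), 1.08% in F12A, 1.20% in F42A, 1.21% in F41A and 1.27% in F14A (1.17 to 1.38%). Their mean was 1.16% ± 0.102 (SD, n = 5). The Off-Ob PVH libraries lay close together, and RC5A and RC8A stood above all other PVH libraries. The PVH library of F42A, whose ARC library was lowest, lay in the middle of its group. Intervals cover counting error only, since reads were amplified and carry no molecular identifiers.

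**Figure D1:**
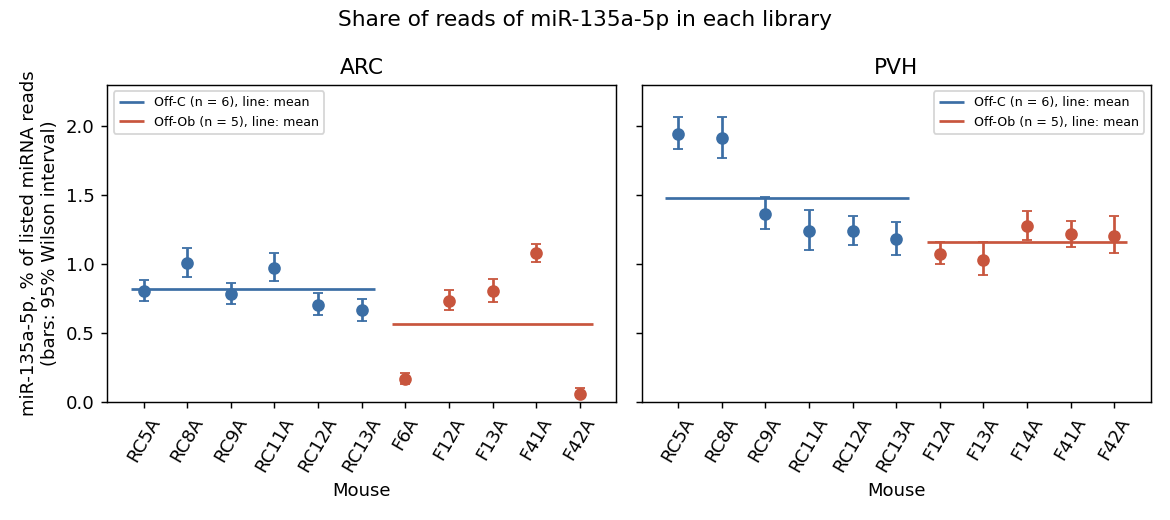
Share of the listed miRNA reads taken by miR-135a-5p (y axis, %) in each library, named by mouse (x axis), with 95% Wilson intervals as bars and the group mean as a line. In the ARC, F42A at 0.0573% and F6A at 0.163% lie far below the other libraries, and in the PVH, RC5A at 1.95% and RC8A at 1.92% lie above the rest.

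The authors' log2(CPM + 1) values put miR-135a-5p at 12.82 ± 0.29 (SD, n = 6) in Off-C ARC, 12.00 ± 1.36 (n = 5) in Off-Ob ARC, 13.81 ± 0.38 (n = 6) in Off-C PVH and 13.51 ± 0.16 (n = 5) in Off-Ob PVH. Without F42A and F6A the Off-Ob ARC mean was 12.97 ± 0.36 (n = 3). These values were scaled in each nucleus separately. On the log2(CPM + 1) scale over the plain library total, which is common to both nuclei, the order from high to low was Off-C PVH at 13.82 ± 0.33, Off-Ob PVH at 13.50 ± 0.13, Off-C ARC at 12.99 ± 0.24 and Off-Ob ARC at 11.81 ± 1.82. The PVH groups differed by less than the SD of Off-C PVH, and the ARC groups by less than the SD of Off-Ob ARC. The gap between Off-Ob PVH and Off-C ARC was larger than either SD. Without F42A and F6A the Off-Ob ARC mean was 13.07 ± 0.29 (n = 3), above that of Off-C ARC.

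By mean deposited level, miR-135a-5p held place 19 of 172 in the PVH and place 23 in the ARC. In single libraries its rank by reads was 11 to 19 in the PVH, 16 to 21 in Off-C ARC, and 15, 18, 19, 39 and 58 in Off-Ob ARC, with F6A at 39 and F42A at 58. In the PVH its mean of 13.67 ± 0.33 (SD, n = 11) followed let-7e-5p at 13.89 ± 0.28 and miR-5100 at 13.70 ± 0.45, and these neighbours did not differ from it beyond their spread. Below it came a step to miR-384-3p at 13.00 ± 0.31 and miR-495-3p at 12.98 ± 0.31, and neither was above miR-135a-5p in any of the 11 PVH libraries.

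In the ARC its mean of 12.45 ± 0.98 (SD, n = 11) lay between miR-384-3p at 12.50 ± 0.33 and miR-323-3p at 12.47 ± 0.43 above it and miR-9-5p at 12.33 ± 1.13 and miR-29b-3p at 12.33 ± 0.50 below it. None of these neighbours differed from it beyond their spread. The ARC place rests on F42A and F6A, without which it was 18, and miR-384-3p was above miR-135a-5p in 2 of the 11 libraries only. miR-7a-5p, a miRNA enriched in neurons and endocrine cells of the hypothalamus and pituitary, led both nuclei, with 18.8% of all ARC reads and 14.4% of all PVH reads. miR-135a-5p took 0.759% of all ARC reads (0.855% without F42A and F6A) and 1.35% of all PVH reads.

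**Figure D2:**
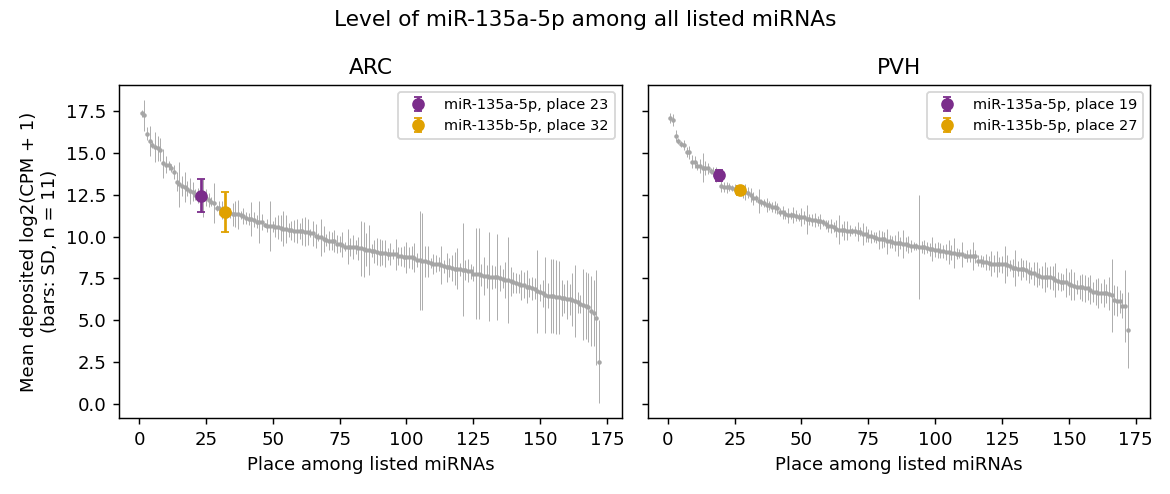
Mean deposited log2(CPM + 1) of the 172 listed miRNAs (y axis; grey, bars are the SD over 11 libraries) against their place in that order (x axis) in each nucleus. miR-135a-5p is at place 23 (ARC) and 19 (PVH), with an SD of 0.98 and 0.33.

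The spread of miR-135a-5p among libraries of a group was wide in Off-Ob ARC and narrow in Off-Ob PVH. Its SD on the log2 scale was 1.36 in Off-Ob ARC, where 133 of 172 miRNAs had a smaller SD, and 0.16 in Off-Ob PVH, where 13 had a smaller one. In Off-C it was 0.29 for the ARC and 0.38 for the PVH, where 38 and 58 miRNAs had smaller SDs. Counting error alone would give an SD of 0.20 in Off-Ob ARC and 0.066 to 0.078 in the other groups.

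The first question is whether miR-135a-5p differs between Off-C and Off-Ob mice. In the ARC the Off-Ob mean was lower by a log2 difference of -0.82 (SE 0.51, 95% interval -1.93 to 0.29), which did not pass the threshold (adjusted p = 0.49, limma with Benjamini-Hochberg adjustment over 172 miRNAs). An exact two-sided permutation test over the 11 libraries gave p = 0.245, and p = 0.294 after Benjamini-Hochberg adjustment over the 6 permutation tests made. Over all miRNAs the ARC comparison called 0 of 172 after adjustment (0% of those tested), by limma and by limma-voom alike. Without adjustment limma called 10 (5.81%) and limma-voom 8. miR-135a-5p, at an unadjusted p = 0.132 in limma, was not among the 10.

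The lower Off-Ob mean in the ARC rested on F42A and F6A. Without F42A the log2 difference was -0.38, without F6A it was -0.54, and without F41A, the highest Off-Ob library, it was -1.16, again past no adjusted threshold. Without both F42A and F6A it turned to 0.14 (SE 0.21, adjusted p = 0.99, limma), and over the alternatives tried in the ARC the adjusted p ran from 0.309 to 0.987. Both libraries also had the lowest sum of the neuron-enriched markers without miR-7a-5p, where F42A had 0.375% and F6A 0.496%, below the 1.88 to 2.88% of the Off-C ARC libraries. The members did not all go the same way. Between the ARC groups with all libraries, 8 of the 11 listed were lower in Off-Ob and 3 higher, beside 105 of 172 miRNAs lower. Among these 3 were miR-124-3p (log2 difference 0.19, SE 0.41) and miR-7a-5p (0.05). For the vessel list (3 of 4 listed) the values were 0.507% (F42A), 0.828% (F6A) and 0.855 to 2.62% (Off-C ARC). The listed markers of microglia and leukocytes (2 of 6, miR-150-5p and miR-146a-5p, with miR-142a and miR-223 not listed) were at 0.0661% (F42A), 0.180% (F6A) and 0.255 to 0.417% (Off-C ARC). miR-338-3p, the only listed oligodendrocyte marker of 3, was at 0 in F42A, which allows a share of up to 0.0132%. Taken over the reads outside let-7, F42A held 0.274% of miR-135a-5p and F6A 0.456%, where Off-C ARC libraries held 1.00 to 1.75%. The part of let-7 or of cell composition in the result was not tested.

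In the PVH the Off-Ob mean was lower by a log2 difference of -0.31 (SE 0.19, 95% interval -0.70 to 0.090), which did not pass the threshold either (adjusted p = 0.98, limma). The exact two-sided permutation test gave p = 0.160, adjusted to 0.240. All 5 Off-Ob libraries lay under the Off-C mean, 2 of them lay under every Off-C library, and 4 of the 6 Off-C libraries lay above every Off-Ob library on the deposited scale. By share of reads, 3 of the 6 Off-C libraries did so. These counts of libraries were not made for the other miRNAs. RC5A and RC8A carried a good part of it, since the difference was -0.20 without RC5A and -0.22 without RC8A. The PVH comparison called 0 of 172 miRNAs at the adjusted threshold (0%) and 0 at the unadjusted one, by limma and by limma-voom alike.

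**Figure D3:**
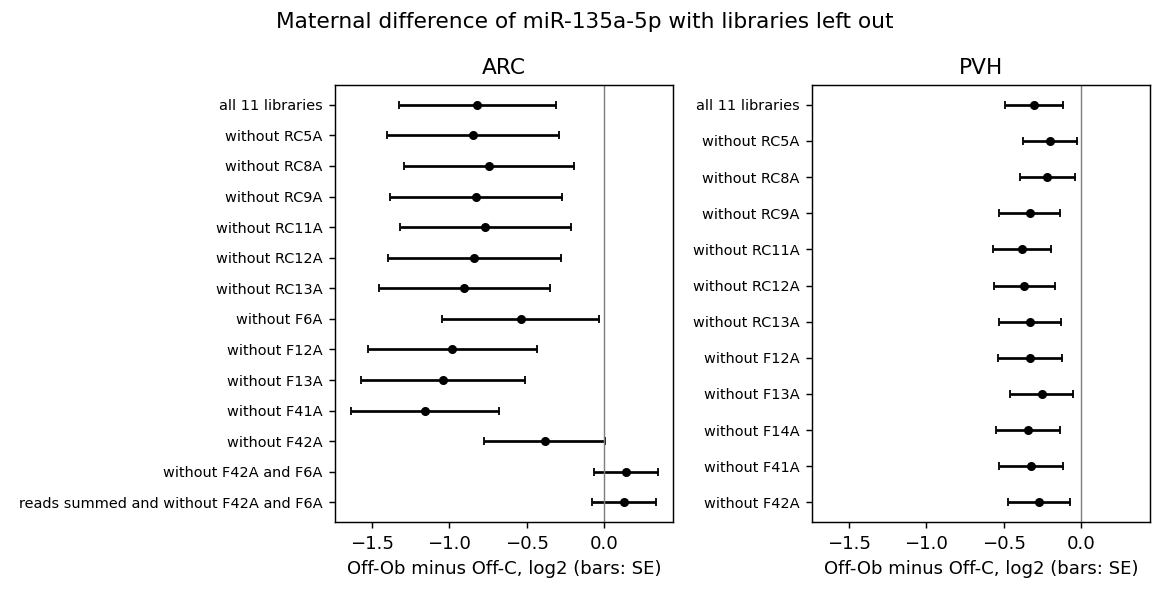
Difference of miR-135a-5p between Off-Ob and Off-C (x axis, log2 of the deposited scale, bars are the SE) with all 11 libraries of a nucleus and with libraries left out (y axis). In the ARC the difference is -0.82 with all libraries and 0.14 without F42A and F6A, and in the PVH it stays between -0.38 and -0.20.

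The second question is how the nuclei compare within the same mice. miR-135a-5p took a larger share of the reads in the PVH than in the ARC in 10 of 10 mice. In the 6 Off-C mice the share in the PVH over that in the ARC was 1.27 at the lowest (RC11A), 1.77 at the median and 2.42 at the highest (RC5A). In the 4 Off-Ob mice it was 1.13 in F41A, 1.28 in F13A, 1.47 in F12A and 21.0 in F42A. Thus F42A, with 13 ARC reads, stood far from every other mouse. Of all miRNAs, 18 (10.5%) were higher in the PVH in every mouse and 1 (0.581%) was lower in every mouse.

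Over both maternal groups miR-135a-5p was higher in the PVH by a log2 difference of 1.28 (SE 0.38, 95% interval 0.50 to 2.06, adjusted p = 0.0182, limma with the mouse as a block), which is 2.42-fold (95% interval 1.41 to 4.17). It was 1 of 37 miRNAs called (21.5% of 172), of which 34 (19.8%) were higher and 3 (1.74%) lower in the PVH. The difference of all miRNAs had a median of 0.38 on this scale, so that miR-135a-5p stood 0.89 above the median. With median-ratio scaling the median was -0.02 and the difference of miR-135a-5p 0.87 (adjusted p = 0.0379). An exact sign-flip permutation test over the 10 mice, two-sided, gave p = 0.00195, the smallest it can give, adjusted to 0.0117 over the 6 permutation tests, with a mean log2 difference of 1.05. Without F42A the mean was 0.68 and 9 of 9 mice were higher (exact permutation p = 0.00391, adjusted to 0.0117).

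The call over both groups held without the ARC libraries of F42A and F6A, where the log2 difference was 0.64 (SE 0.13, adjusted p = 0.00134, limma), against a median of 0.23 over all miRNAs. This difference was the smallest of the alternatives tried, whose adjusted p ran from 0.00107 to 0.0455 (limma). In Off-C the difference was 0.83 (SE 0.51) with all libraries and did not pass the threshold (adjusted p = 0.49, limma), although all 6 mice were higher (exact sign-flip permutation p = 0.0312, the smallest 6 mice allow, adjusted to 0.0625). Every Off-C PVH library, from 13.53 up, was above every Off-C ARC library, up to 13.29 on the plain log2 scale, as was so for 5.81% of all miRNAs. Of all miRNAs 7 (4.07%) were called in Off-C by this fit, which shares 1 estimate of the spread over all groups. Without the ARC libraries of F42A and F6A the Off-C difference was again 0.83 but its SE was 0.17 (adjusted p = 0.00122, limma), against adjusted p values of 0.154 to 0.737 in the other alternatives.

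In Off-Ob the difference was 1.72 (SE 0.55, adjusted p = 0.0347, limma), among 36 miRNAs called (20.9%), and this call rested on few libraries. It was 0.44 (adjusted p = 0.228) without the ARC libraries of F42A and F6A, and its adjusted p ran from 0.0150 to 0.228 over the alternatives. The maternal groups were not shown to differ in how the PVH compares with the ARC. The difference of the differences was 0.89 (SE 0.75, 95% interval -0.68 to 2.45, adjusted p = 0.54, limma) and turned to -0.40 (SE 0.27, adjusted p = 0.97) without the ARC libraries of F42A and F6A. Permuting the maternal group over the 10 mice gave a difference of 0.54 with an exact p = 0.762, the same after adjustment. Over all miRNAs this comparison called 0 of 172 (0%) by limma, and 7 (4.07%) at the unadjusted threshold.

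**Figure D4:**
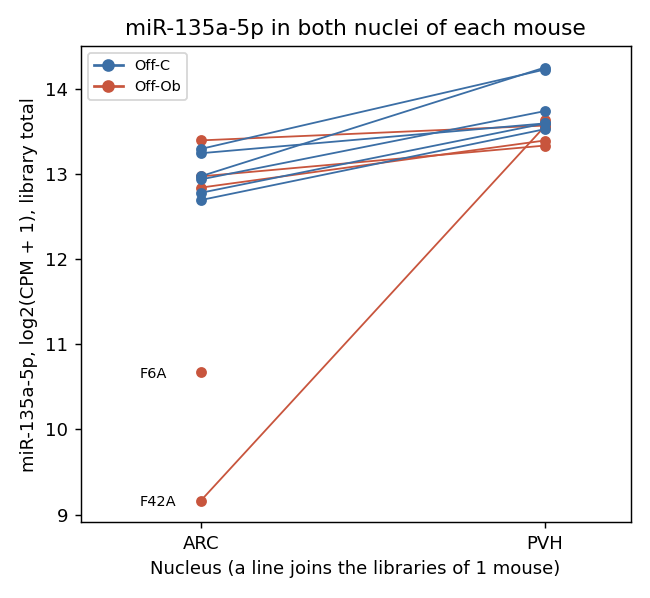
Level of miR-135a-5p as log2(CPM + 1) over the library total (y axis) in the ARC and PVH (x axis), with a line for each of the 10 mice with both libraries and single points for F6A and F14A. All 10 lines rise to the PVH, and that of F42A starts from 13 reads and is the steepest.

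The column names place all ARC libraries in a single sequencing pool and all PVH libraries in another, so pool and nucleus cannot be told apart. Some markers of other cells differed between the nuclei as well. The vessel list took 2.00 to 3.25% of the reads in Off-C PVH against 0.855 to 2.62% in Off-C ARC, and these ranges overlap. Over both groups with all libraries, 2 of its 3 listed members were called higher in the PVH, beside 34 of 172 miRNAs (19.8%). The microglia and leukocyte list took 0.702 to 0.867% against 0.255 to 0.417%, where miR-150-5p was higher in the PVH over both groups (2.12, SE 0.31, adjusted p = 0.000121, limma) and miR-146a-5p was not called (-0.05, SE 0.27). miR-338-3p took 0.0107 to 0.0400% and 0.00824 to 0.0309%, which overlap too. None of the 3 red blood cell markers or the 4 ependyma and choroid plexus markers was among the listed miRNAs, and of 6 pituitary markers miR-7a-5p alone was, at 11.1 to 15.2% in Off-C PVH and 15.2 to 21.9% in Off-C ARC. Of the neuron-enriched list, 4 of 11 were called higher in the PVH in the same fit and none lower, with 9 above 0 and 2 below. The part of any of these cells in the difference between nuclei was not tested.

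miR-135b-5p, the paralogue that shares the seed, tracked miR-135a-5p closely. It had 4 reads in the ARC of F42A and 567 in the PVH of RC5A, the same libraries as the extremes of miR-135a-5p. It never exceeded miR-135a-5p in any of the 22 libraries, and held place 32 in the ARC (29 without F42A and F6A) and 27 in the PVH. Of the 9912 reads of miR-135a-5p and 5295 of miR-135b-5p, miR-135b-5p made up 34.8%. This part ran from 23.5% in the ARC of F42A (95% Wilson interval 9.56 to 47.3%) to 39.8% in the PVH of F14A (36.7 to 42.9%). The interval of 20 of the 22 libraries held the pooled value, while the share of miR-135a-5p itself varied 18.8-fold over the ARC libraries (1.62-fold without F42A and F6A) and 1.89-fold over the PVH libraries. The exceptions were F14A and RC8A in the PVH, the latter at 29.6% (26.7 to 32.7%).

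How reads that match both paralogues were assigned is not given in the sources used here, so that the division between miR-135a-5p and miR-135b-5p is uncertain. By the same fits, miR-135b-5p differed by -1.05 (SE 0.61) between Off-Ob and Off-C in the ARC and by -0.17 (SE 0.18) in the PVH, neither past the adjusted threshold. Without F42A and F6A the ARC difference turned to 0.11 (SE 0.23). It was higher in the PVH by 1.38 over both groups (SE 0.44, adjusted p = 0.0257, limma), and by 0.64 (SE 0.15, adjusted p = 0.00248) without the ARC libraries of F42A and F6A. With the reads of both summed, the values were -0.89 in the ARC, -0.26 in the PVH and 1.31 between the nuclei (adjusted p = 0.0197, limma), so the same calls were made. Without F42A and F6A the summed values were 0.13 in the ARC and 0.64 between the nuclei (adjusted p = 0.00107, limma).

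**Figure D5:**
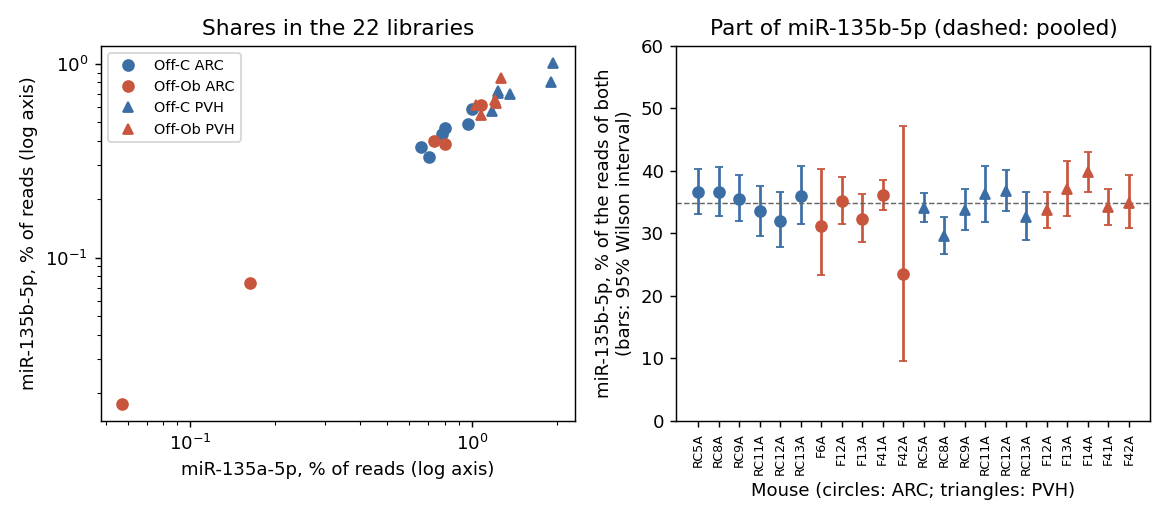
Left, share of reads of miR-135b-5p (y axis, %, log axis) against that of miR-135a-5p (x axis, %, log axis) in the 22 libraries. Right, part of miR-135b-5p in the reads of both (y axis, %, bars are 95% Wilson intervals) by library, with the pooled 34.8% dashed; 20 of the 22 intervals hold it.

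The miRNAs most like miR-135a-5p were found by Pearson's r of the deposited log2 values over the 11 libraries of a nucleus, as a description. These values share library, depth and scaling. In the PVH they were miR-135b-5p (r = 0.86), miR-125a-5p (0.83), miR-153-3p (0.83), miR-374b-5p (0.82) and miR-467b-5p (0.81). In the ARC they were miR-135b-5p (r = 0.99), miR-153-3p (0.98), miR-467b-5p (0.97), miR-125a-5p (0.96) and miR-132-3p (0.96). Thus 4 of the 5 were named in both nuclei with all libraries. miR-153-3p is enriched in neurons, miR-125a-5p is a relative of lin-4 of C. elegans, and miR-132-3p is induced by neuronal activity through CREB.

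The ARC values rest in part on F42A and F6A. Over the other 9 libraries r was 0.94 for miR-135b-5p, 0.87 for miR-153-3p, 0.71 for miR-132-3p, 0.70 for miR-467b-5p and 0.68 for miR-125a-5p. There miR-21a-5p, miR-335-5p and miR-146a-5p took the places of the last 3, and only miR-135b-5p and miR-153-3p, 2 of the 5, were shared with the PVH. The least alike in the PVH were miR-25-3p (r = -0.92), miR-541-5p (-0.90) and miR-191-5p (-0.89). The PVH values depend on the scaling. Over the plain library total these 3 were at -0.64, -0.64 and -0.60, and the 5 most alike in the PVH were at 0.67 to 0.82. In the ARC the least alike were let-7d-5p (-0.93), miR-6538 (-0.93) and miR-330-3p (-0.91), which over the other 9 libraries were at -0.43, -0.40 and -0.04. Apart from miR-135b-5p, the most alike miRNAs with a RefSeq entry carry other seeds, as their sequences show with the seed in capitals.
miR-153-3p: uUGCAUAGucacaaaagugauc
miR-125a-5p: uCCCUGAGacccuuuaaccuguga
miR-132-3p: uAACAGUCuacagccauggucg
miR-374b-5p: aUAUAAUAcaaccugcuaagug

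Of 29 miRNAs with a known link to stress or serotonin, 14 were listed, miR-135a-5p and miR-135b-5p included. Between the nuclei, 4 of the 14 were called higher in the PVH over both maternal groups and none lower, beside 19.8% higher over all miRNAs. These were miR-135a-5p, miR-135b-5p, miR-218-5p, a miRNA enriched in motor neurons, at 1.90 (SE 0.35, adjusted p = 0.000707, limma), and miR-138-5p, a brain-enriched miRNA known to act on dendritic spine size, at 0.78 (SE 0.23, adjusted p = 0.0182, limma). 13 of the 14 were above 0 with a median difference of 0.87, against 126 of 172 and a median of 0.38 over all miRNAs. Without the ARC libraries of F42A and F6A the same 4 were called, beside 35 of 172 miRNAs called higher. In that fit 12 of the 14 were above 0 with a median of 0.48, against 109 of 172 and a median of 0.23. In Off-Ob, miR-132-3p was called as well (1.74, SE 0.54, adjusted p = 0.0315, limma) and miR-138-5p was not, beside 36 of 172 miRNAs (20.9%) called. In Off-C none of the 14 was called, beside 7 of 172 (4.07%). Without these ARC libraries miR-218-5p alone of the list was called in Off-Ob, beside 8 of 172 miRNAs called higher. In Off-C, miR-135a-5p, miR-135b-5p and miR-218-5p were then called, beside 14 of 172 called higher.

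Between Off-Ob and Off-C none of the 14 passed the adjusted threshold in either nucleus. In the ARC 11 of the 14 were lower in Off-Ob, with a median difference of -0.42, against 105 of 172 and a median of -0.16 over all miRNAs. Without F42A and F6A 9 of the 14 were higher and 5 lower, with a median of 0.13, against 84 of 172 higher and a median of -0.005 over all miRNAs. With all libraries the smallest p values were those of miR-132-3p (-1.13, SE 0.50), its hairpin cluster partner miR-212-3p (-2.76, SE 1.47, with 0 reads in 1 library or more) and miR-135b-5p, each at an adjusted p of 0.49 in limma. In the PVH 9 of the 14 were lower, with a median difference of -0.06, against 74 of 172 and a median of 0.05 over all miRNAs. Here miR-135a-5p, at -0.31, had the smallest p of the list, followed by miR-134-5p, a dendritic miRNA, with a difference of 0.37 (SE 0.23). miR-24-3p came next with 0.16 (SE 0.16), and each had an adjusted p of 0.98 in limma.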

How the data were processed

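The authors prepared TruSeq small RNA libraries and aligned them to GRCm38 using Bowtie 1.2.3. The deposited log2 values are log2(CPM + 1). For the CPM, the authors took as denominator the sum of the 172 listed miRNAs in a library, multiplied by a scale factor set in each nucleus separately. The miRNA annotation and the treatment of reads with several matches are not given in the sources used here. Other deposited sheets hold the authors' own comparisons and were not used. The submitters' processing notes also name edgeR 3.36.0.

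Columns carry a group, and the mouse came from the deposited identifier sheet, so libraries are named by mouse. Of the 24 libraries named in that sheet, 22 had deposited log2 values, and all 22 were analysed here. Whole reads were recovered from the log2 values, and all 3784 lay within 0.01 of a whole read. Totals were 22680 to 91790 reads in the ARC and 22495 to 61476 in the PVH. The 95% Wilson intervals and the limit of 3 reads for a count of 0 cover counting error only.

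The maternal groups were compared within a nucleus on the deposited log2 values with the package limma 3.58.1 under R 4.3.3 (eBayes with trend, Benjamini-Hochberg over all 172 miRNAs, CPM of at least 1 in at least 5 libraries, which kept all). The nuclei were compared on log2(CPM + 1) over the plain library total, with 4 group means and the mouse as a block, which is the same animal (consensus correlation -0.13). Permutation tests were exact and two-sided. The limma fits were tried on simulated reads with median-ratio scaling, no mouse effect and no library like F42A or F6A. These settings differ from those of the reported fits, so the simulation does not give their error rates. Alternatives were pseudocounts of 0.5, 10 and 100, other filters and scalings, limma without trend or with robust, limma-voom, no block, and each library or mouse left out. Leaving out both F42A and F6A and summing the paralogues were added after seeing the data.

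The miRNA and the lists were chosen with earlier results of these data known, so no pattern is independent support. miRNAs to name were the paralogue and other arms, miRNAs sharing the seed, the 2 neighbours above and below in mean level, the most abundant one, the 5 most and 3 least alike in each nucleus, and the called members of the stress list or, where none was called, the 3 of smallest p. Sequences were from RefSeq (GRCm38.p6) and gene context from GENCODE vM21. Python 3.11.15, NumPy 2.4.6, SciPy 1.17.1, pandas 2.3.3 and matplotlib 3.10.9 were used.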

Additional observations from a re-analysis of the deposited data

Results flagged for a closer look

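Dixon's ratio was applied to 22 sets of values of 4 to 6 libraries or mice, and 3 passed its 95% limit, where chance gives about 1 in 20. The log2 difference of miR-135a-5p between PVH and ARC in the Off-Ob mice was 4.39 in F42A, far above those of the other Off-Ob mice (0.17, 0.36 and 0.55), and rests on 13 ARC reads. The deposited level of miR-135b-5p in Off-Ob PVH was 13.05 in F14A, above the other libraries of that group, while miR-135a-5p in F14A was at 13.65 and the highest of its group by a small margin only. The rank of miR-135a-5p in Off-Ob PVH was 18 in F14A against 19 in each of the other 4 libraries, a difference of a single place that is past the limit because the others are tied.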

How the results depend on the processing

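Of 256 values under alternatives, 241 kept their direction and side of the threshold or stayed within the limits set for counts and levels. Some of these could not move. The filter kept all 172 miRNAs, so that dropping it changed nothing. Leaving out an Off-Ob mouse cannot move the nucleus difference in Off-C, only its SE. Without F42A and F6A the ARC maternal difference turned to 0.14, and to 0.13 with the paralogues summed as well. Without their ARC libraries the nucleus difference was 0.83 in Off-C, now past the threshold, and 0.44 in Off-Ob, no longer past it, and the difference of differences turned to -0.40. Median-ratio scaling also took the Off-Ob call (1.11, adjusted p = 0.0871, limma). Leaving out each mouse gave 1.12 to 2.10 in Off-Ob, and the call was lost without F6A, F42A or F14A. The miRNAs called between nuclei numbered 37, against 59 with the deposited values and 20 to 54 leaving out each mouse, with 20 without RC12A and 22 without RC11A. Leaving out libraries gave -1.16 to -0.38 for the maternal difference in the ARC and -0.38 to -0.20 in the PVH. Over the reads outside let-7, group means rose to 13.69 in Off-C ARC, 12.96 in Off-Ob ARC, 14.50 in Off-C PVH and 14.13 in Off-Ob PVH, since the denominator is smaller.

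No replicate block gave 1.26 between nuclei over both groups (adjusted p = 0.0131, limma), 0.83 in Off-C and 1.69 in Off-Ob, a difference of differences of 0.85 and 41 miRNAs called, so the pairing by mouse changed no call of miR-135a-5p, while the count of miRNAs called was 37 with it. No paired analysis was possible between Off-C and Off-Ob because the groups share no mouse. The causes of these changes were not tested beyond what the construction shows. The ARC comparison is limited by 5 Off-Ob libraries, of which F42A gave 13 reads of miR-135a-5p.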
